A study of Homo sapiens with 4 samples.

Results

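The histone genes of the table were 74 of its 32673 genes, chosen by symbol and biotype. All are annotated as protein coding. 60 carry a HIST symbol and lie in the histone gene clusters, 47 in HIST1 on chromosome 6, 9 in HIST2 and 3 in HIST3 on chromosome 1, and 1 in HIST4 on chromosome 12. They encode linker histone H1 (5 genes), H2A (12), H2B (17), H3 (13) and H4 (13). The other 14 lie outside the clusters and include the linker histones H1F0 and H1FX and the variants H2AFX, H2AFZ, H2AFV, H2AFY, H3F3A and H3F3B.

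Core histones H2A, H2B, H3 and H4 form the spool on which DNA is wound, and H1 binds the linker DNA between spools. Most cluster genes have no intron, are transcribed in S phase when new chromatin is built, and give an RNA that ends just after a short stem-loop in place of a poly(A) tail, which the stem-loop binding protein SLBP recognises. Variant genes outside the clusters mostly give polyadenylated RNA and are expressed throughout the cell cycle, and some of them, such as H2AFZ and H3F3A, have introns.

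RNA sequencing compared TF1-BA cells, the human erythroleukaemia line TF1 made imatinib-sensitive by a BCR-ABL retrovirus, with TF1-BAR cells, their derivative grown resistant under continuous imatinib. Imatinib inhibits the BCR-ABL kinase. Each line gave 2 libraries of 10000000 cells each, grown with 2 ng/mL GM-CSF and 10% serum, and the medium of TF1-BAR cells also held 2 uM imatinib, so that resistance and the presence of the drug cannot be told apart. The labels title the TF1-BAR libraries as vector libraries, do not say whether the line is 1 clone, and do not say whether replicates are separate cultures, so that p-values may measure only technical spread. The comparison asks how RNA levels differ between the resistant and the sensitive cells.

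The libraries held 15465497 to 18042299 fragments, and levels are given in FPKM, which scale the fragments of a gene to its length and to the depth of the library. Where 4 values stand in a row, they are those of TF1-BA replicates 1 and 2 and TF1-BAR replicates 1 and 2. Of the TF1 marker list, 11 of 12 genes passed the filter on low values, and GATA1 and GATA2 were at 65.9 to 241 FPKM in every library. The summed level of this list was 544 to 552 FPKM in TF1-BA cells and 679 to 723 FPKM in TF1-BAR cells, 6 of its 11 tested genes were higher by the adjusted p and 0 lower, and CD34 and KIT passed both thresholds, with log2 fold changes of 1.17 and 1.12. In the lists for T cells, B cells, monocytes, epithelium and fibroblasts, CD3E, CD2, CD14, CD163, EPCAM and COL1A2 were at or below 0.103 FPKM. The T cell gene CD3D was lower in TF1-BAR cells (19.2 and 20.7 against 5.74 and 6.36 FPKM), and CD79B, CSF1R, KRT8, KRT18 and LUM were among the genes of these lists that were higher. The summed levels of the lists ran in TF1-BA and TF1-BAR cells from 19.5 to 21.0 and from 6.09 to 6.84 FPKM for T cells, from 5.78 to 6.49 and from 11.8 to 12.4 for B cells, from 0.225 to 0.326 and from 1.32 to 1.41 for monocytes, from 41.1 to 44.2 and from 67.5 to 68.1 for epithelium, and from 0.631 to 0.767 and from 1.52 to 1.54 for fibroblasts. Their part in the histone results was not tested.

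The stem-loop is shown first because it marks which histone genes have an RNA of the replication-linked kind. It was searched in the 120 bases after the stop codon of the MANE Select transcript of each gene (GENCODE 44). For a histone gene without such a transcript, the first coding transcript by identifier was used. The search was for a stem of 6 base pairs that opens with GG and closes with CC, around a loop of 4 bases. T had to stand in the first and the third place of the loop, and G-T pairs were allowed. The stem-loop was found in 55 of 56 cluster genes searched (98.2%) and in 1 of 14 genes outside the clusters. Of all 19061 genes with a MANE Select transcript, 83 had it (0.435%). HIST1H3B, HIST1H3C, HIST2H2AA3 and HIST2H2AA4 were not searched. The exception in the clusters was HIST1H3D, for which the transcript searched had 2 exons, and the gene outside was H2AFX. No other transcript of HIST1H3D was searched. The examples below are 26 bases each on the strand of the gene in GRCh38, with stem and loop in capitals. They lie at chr6:27146361-27146386 for HIST1H2BK, chr6:27132316-27132341 for HIST1H2BJ, chr6:26055739-26055764 for HIST1H1C, chr6:26124664-26124689 for HIST1H2AC, chr6:27139649-27139674 for HIST1H4I and chr11:119094893-119094918 for H2AFX, all in the 3′ untranslated region.
HIST1H2BK: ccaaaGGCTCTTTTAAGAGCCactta
HIST1H2BJ: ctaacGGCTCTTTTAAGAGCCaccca
HIST1H1C: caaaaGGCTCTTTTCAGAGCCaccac
HIST1H2AC: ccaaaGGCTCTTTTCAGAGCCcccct
HIST1H4I: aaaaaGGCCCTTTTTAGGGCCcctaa
H2AFX: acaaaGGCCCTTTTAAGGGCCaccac

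The left arm of the stem was GGCTCT in the 42 matched genes for H1, H2A, H2B and H3 and GGCCCT in the 14 genes that comprise H4 and H2AFX. The loop was TTTC in 39 genes, TTTA in 9, TTTT in 5, TCTC in 2 and TCTA in 1.

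Of the 74 histone genes, 34 had a mean of at least 0.5 FPKM over the 4 libraries and were tested, 26 in the clusters and 8 outside. HIST1H2AG, HIST1H2BL, HIST1H2BN, HIST1H2BO and HIST1H3E had TF1-BAR means below 0.5 FPKM and passed this filter only through TF1-BA cells. HIST1H3F passed it only through TF1-BAR cells. The direction of these genes is therefore not independent of the filter. The largest changes were falls of HIST1 genes in the resistant cells, among them 5 H2B genes and the linker histone gene HIST1H1C, while 14 of the 26 cluster genes tested did not pass the adjusted p. 8 genes, all of HIST1, passed an absolute log2 fold change of 1 and an adjusted p of 0.05 in limma, all of them lower in TF1-BAR cells, beside 1.69% of the 15519 genes tested that passed both and were lower, and 0 passed both and were higher beside 3.05%. By the adjusted p alone, 12 histone genes were lower beside a background of 10.5%, and 2 were higher beside 16.3%. All 12 were cluster genes and both higher ones, H1F0 and H2AFY, lay outside. The libraries of the cell lines did not overlap in 22 genes that were lower in TF1-BAR cells (28.4% of all genes tested) and in 4 that were higher (40.9%), and they overlapped in 8. The median log2 fold change, TF1-BAR against TF1-BA on the log2(FPKM + 0.5) scale, was −0.75 over the 26 cluster genes, −0.073 over the 8 others and 0.066 over all genes tested. The pseudocount of 0.5 makes the change of genes at low FPKM look smaller than the ratio of their FPKM. Without TF1-BA replicate 1, 2 histone genes passed both thresholds, without TF1-BA replicate 2 it was 1, and without TF1-BAR replicate 2 it was 5, when the number past both over all genes went from 737 to 144, 42 and 427. HIST1H2BK passed in each of these. In these bulk libraries, fewer cells in S phase and less histone RNA per cell cannot be told apart. Since selection by the poly(A) tail is not given, the values may also cover only a part of the cluster histone RNA.

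**Figure D1:**
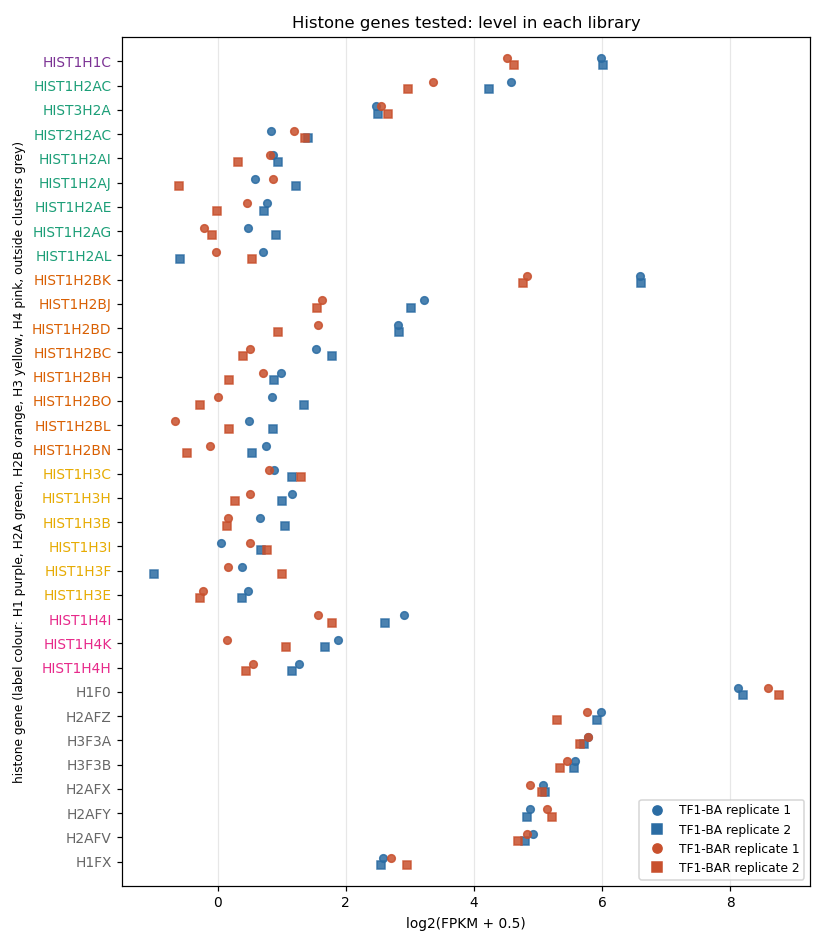
Level of the 34 tested histone genes in each library, as log2(FPKM + 0.5), with TF1-BA libraries in blue, TF1-BAR libraries in red, circles for replicate 1 and squares for replicate 2. The H2B genes lie to the left in both TF1-BAR libraries, while H3F3A and H2AFV overlap and H1F0 lies to the right.

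HIST1H2BK (chr6:27146418-27146798, minus strand), which encodes an H2B protein, had the highest mean FPKM of the cluster genes. FPKM scale to length, and this gene is listed with only 381 bases. By mean fragments per library it came below HIST1H1C and HIST1H2AC (390.5 against 462 and 407). The level of HIST1H2BK was 96.3 and 96.7 FPKM in TF1-BA cells, against 27.8 and 26.6 FPKM in TF1-BAR cells, from 662, 570, 167 and 163 fragments. The replicates differed little and the cell lines were far apart. The log2 fold change was −1.81 (SE 0.0590, adjusted p = 0.00108). Of the 75-base words of HIST1H2BK, 50.5% also occur elsewhere in the genome, and its copy H2BFS on chromosome 21 was listed with at most 1 fragment in any library. The pipeline was run with default parameters, and how reads with several matches entered the values was not tested, so the level of this gene is uncertain.

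HIST1H1C (chr6:26055787-26056428, minus strand) encodes the linker histone H1.2. It was at 63.1 and 64.6 FPKM in TF1-BA cells and 22.3 and 24.2 FPKM in TF1-BAR cells. Its log2 fold change was −1.44 (SE 0.0686, adjusted p = 0.00213), and none of its words occur elsewhere. The other 4 H1 genes of the clusters had at most 6 fragments in a library and were not tested. HIST1H1C was thus nearly the whole of the H1 level measured from the clusters, which summed to 64.1 and 65.8 FPKM in TF1-BA cells and 22.97 and 24.9 FPKM in TF1-BAR cells.

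Other H2B genes fell beside HIST1H2BK. HIST1H2BJ (chr6:27125897-27132750) was at 8.87 and 7.62 FPKM in TF1-BA cells and at 2.60 and 2.42 FPKM in TF1-BAR cells, a log2 fold change of −1.53 (SE 0.106, adjusted p = 0.00409). HIST1H2BD (chr6:26158146-26171349) was at 6.55 and 6.61 FPKM and at 2.48 and 1.43 FPKM, a log2 fold change of −1.56 (SE 0.216, adjusted p = 0.0115). In both genes every TF1-BAR library lay below every TF1-BA library. The antisense gene AL353759.1 overlaps HIST1H2BD over 10585 bases, and it was listed with at most 1 fragment in any library. HIST1H2BC (chr6:26114873-26123926) had 2.39, 2.95, 0.913 and 0.821 FPKM and a log2 fold change of −1.21 (SE 0.143, adjusted p = 0.00891). HIST1H2BO (chr6:27893463-27893843) had 1.31, 2.04, 0.4996 and 0.327 FPKM and a log2 fold change of −1.24 (SE 0.232, adjusted p = 0.0226). It rests on 9, 12, 3 and 2 fragments. The ratio of TF1-BA to TF1-BAR fragments per library size was 3.99 for HIST1H2BO, with an exact 95% interval of 1.46 to 13.5 that covers counting error only.

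All 8 tested H2B genes were lower in TF1-BAR cells without overlap between the cell lines, beside 28.4% of all genes tested. Of these 8, 6 passed the adjusted p, beside 10.5%, and the median log2 fold change was −1.22. HIST1H2BL, HIST1H2BN and HIST1H2BO passed the filter only through TF1-BA cells, so these counts are not independent of the filter. HIST1H2BN (1.19, 0.956, 0.417 and 0.216 FPKM) passed the adjusted p with a log2 fold change of −0.96, adjusted p = 0.0354 by limma, and overlaps HIST1H2AL over 393 bases on the same strand. HIST1H2BH and HIST1H2BL had log2 fold changes of −0.49 and −0.92 and did not pass.

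Of the 8 tested H2A genes, 2 fell by the adjusted p, beside 10.5% of all genes tested, and 1 of them past both thresholds, beside 1.69%. The other 6 did not pass the adjusted p, and the median log2 fold change of the H2A genes was −0.43. HIST1H2AC (chr6:26124145-26139116), the most abundant of them, was at 23.4 and 18.3 FPKM in TF1-BA cells and at 9.74 and 7.38 FPKM in TF1-BAR cells. The cell lines did not overlap, and the log2 fold change was −1.24 (SE 0.176, adjusted p = 0.0122). HIST1H2AG fell by 0.84 on the log2 scale, with an adjusted p of 0.0488 in limma, from 0.887 and 1.38 FPKM to 0.367 and 0.442 FPKM. HIST1H2AG passed the adjusted p in 8 of 16 settings, with an adjusted p of up to 0.178 in limma and log2 fold changes from −1.40 to −0.59. HIST3H2A, from the small cluster on the long arm of chromosome 1, was at 5.08, 5.20, 5.39 and 5.84 FPKM, with a log2 fold change of 0.12 and a 95% interval of −0.10 to 0.33. HIST2H2AC, with 23.7% of its words elsewhere, was at 1.28, 2.16, 1.79 and 2.07 FPKM and its libraries overlapped. These were the only HIST2 and HIST3 genes tested.

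Among the 3 tested H4 genes, 2 fell by the adjusted p, beside 10.5% of all genes tested. HIST1H4I (chr6:27138588-27139881) was at 6.98 and 5.60 FPKM in TF1-BA cells and at 2.45 and 2.93 FPKM in TF1-BAR cells, a log2 fold change of −1.09 (SE 0.142, adjusted p = 0.0106). HIST1H4H was at 1.92, 1.73, 0.968 and 0.863 FPKM, with a log2 fold change of −0.72 (adjusted p = 0.0225 by limma). HIST1H4K was at 3.20, 2.69, 0.610 and 1.60 FPKM, without overlap, but had a log2 fold change of −1.17 with an adjusted p of 0.0522 in limma (−1.63 and 0.0429 without TF1-BAR replicate 2). All of its words occur elsewhere in the genome, so its reads cannot be told from those of its copies. Of the 6 tested H3 genes, HIST1H3H fell (1.75, 1.52, 0.923 and 0.704 FPKM, log2 fold change −0.70, adjusted p = 0.0348 by limma). This 1 gene of 6 stands beside 10.5% of all genes tested. The other 5 did not pass the adjusted p, and none passed both thresholds. 3 of the 6 overlapped and 3 were lower without overlap, beside 28.4% of all genes tested. The median over the H3 genes was −0.32, with values from −0.70 to 0.89, the last for HIST1H3F, which was at 0 in a TF1-BA library.

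**Figure D2:**
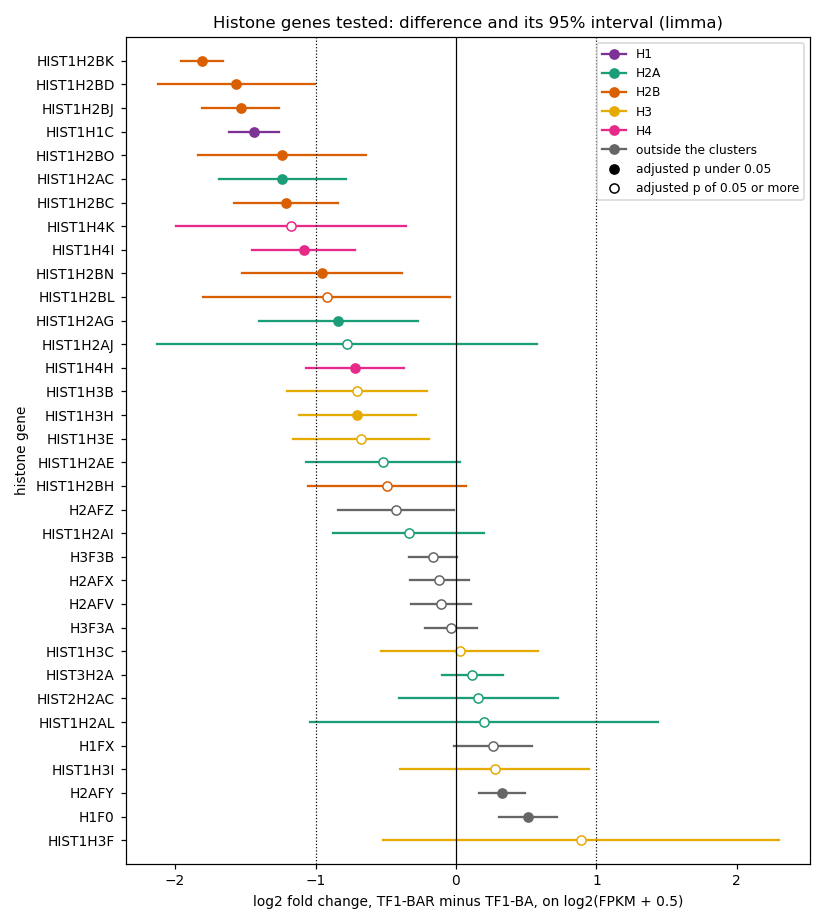
log2 fold change of the 34 tested histone genes, TF1-BAR minus TF1-BA on log2(FPKM + 0.5), with the 95% interval from limma, coloured by histone type and filled where the adjusted p is under 0.05. HIST1H2BK at −1.81 is the lowest value and H1F0 at 0.51 and H2AFY at 0.33 are the filled points above 0.

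Summed over all 60 cluster genes, the level was 242 and 241 FPKM in TF1-BA cells and 92.6 and 91.5 FPKM in TF1-BAR cells, a ratio of 2.62 between the means. HIST1H2BK and HIST1H1C together made up 65.8% and 66.9% of this sum in TF1-BA cells and 54.1% and 55.5% in TF1-BAR cells. Without this pair the ratio was 1.96. By type, the ratio of summed FPKM of TF1-BA to TF1-BAR cells was 3.42 for H2B, 2.71 for H1, 2.14 for H4, 1.69 for H2A and 1.23 for H3. FPKM scale to length, so these sums weight short genes more than fragments do. Summed fragments were 3253, 2658, 1156 and 1087 over all cluster genes and 1860, 1447, 763 and 674 without the pair. They were 1233, 1045, 361 and 314 for H2B and 744, 654, 233 and 258 for H1. For H4 they were 270, 202, 104 and 109, for H2A 876, 640, 387 and 333, and for H3 130, 117, 71 and 73. H3 and H4 together contributed little of the level, with 7.13 and 8.21 FPKM for H3 and 13.04 and 11.9 FPKM for H4 in TF1-BA cells. The order of these ratios was not tested. All cluster genes together took 0.0180% and 0.0172% of the fragments in TF1-BA cells, against 0.00733% and 0.00676% in TF1-BAR cells. Whether the RNA was selected by its poly(A) tail is not given in the sources used here.

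**Figure D3:**
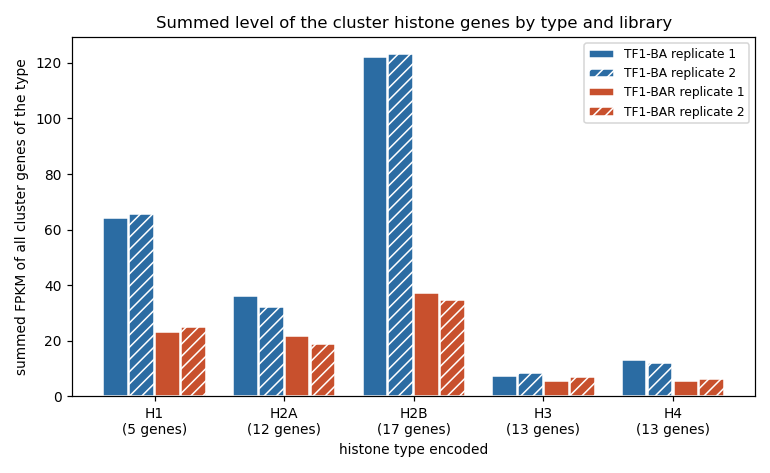
Summed FPKM of all cluster histone genes of each type, 1 bar per library, with TF1-BA in blue, TF1-BAR in red and replicate 2 hatched. The H2B bars stand at 122 and 123 FPKM for TF1-BA cells, against 37.1 and 34.6 FPKM for TF1-BAR cells, while the H3 bars lie between 5.54 and 8.21 FPKM.

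The gene rows of the table differ in where they end relative to the stem-loop, and genes fell among those that end before it and among those that run far past it. 25 of the 55 cluster genes with a stem-loop end before the end of it, mostly at the stop codon, and 9 of these were tested, with a median log2 fold change of −0.78 and 3 past the adjusted p. 24 extend more than 100 bases past it, and 12 of these were tested, with a median of −0.90 and 9 past the adjusted p. The other 6 end within 100 bases past it, and 3 of these were tested, with a median of −0.52 and 0 past the adjusted p. These counts stand beside 10.5% of all genes tested that were lower by the adjusted p. HIST1H2BK and HIST1H1C are of the first kind, with lengths of 381 and 642 bases, and HIST1H2AC, which reaches 14427 bases past its stem-loop, HIST1H2BJ and HIST1H2BD are of the second. By the letters of the loop, given as a description, the 5 tested genes with TTTA had a median of −1.53 and 4 that fell (HIST1H2BK, HIST1H2BD, HIST1H2BJ and HIST1H2BC, the other being H2AFX at −0.12), while the 16 tested genes with TTTC had a median of −0.71 and 7 that fell. The 3 tested genes with TTTT had a median of −1.09, and 1 of them fell. The counts by loop are by the adjusted p and stand beside the same 10.5% of all genes tested. The 4 that fell with TTTA are H2B genes, so that the loop letters and the histone type cannot be told apart across types. Within H2B, the 4 tested TTTC genes HIST1H2BH, HIST1H2BL, HIST1H2BN and HIST1H2BO had log2 fold changes of −0.49, −0.92, −0.96 and −1.24, beside −1.81, −1.56, −1.53 and −1.21 for HIST1H2BK, HIST1H2BD, HIST1H2BJ and HIST1H2BC with TTTA, and this difference was not tested.

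Genes for H2A and H2B often lie head to head and share a promoter. RefSeq promoters of GRCh38.p14 were matched for 61 of the 74 genes, from 250 bases before to 50 after the start. The octamer ATTTGCAT, searched on both strands and known as the site of the factor Oct-1 in H2B promoters, was found in 8 of 12 H2B promoters (66.7%) and 7 of 11 H2A promoters (63.6%), in 1 of 11 H3 promoters (9.09%), in 0 of the 5 for H1 and the 11 for H4, and in 1.77% of all 35116 promoters. Outside the clusters it was in 1 of 11. TATAAA was found in 81.8% of H2A, 72.7% of H3, 66.7% of H2B and 54.5% of H4 promoters, in 2 of 5 for H1, in 36.4% outside the clusters and in 11.5% of all. CCAAT was in all of those for H1, H2A, H2B and H3, in 81.8% outside the clusters, in 18.2% of those for H4 and in 34.6% of all. The promoters of the H2B genes HIST1H2BK and HIST1H2BJ and of HIST1H1C are shown as the 250 bases before the start on the minus strand, because these 3 genes had the smallest adjusted p. They lie at chr6:27146859-27147108, chr6:27132796-27133045 and chr6:26056471-26056720, and capitals mark the octamer, TATAAA and CCAAT on either strand.
HIST1H2BK: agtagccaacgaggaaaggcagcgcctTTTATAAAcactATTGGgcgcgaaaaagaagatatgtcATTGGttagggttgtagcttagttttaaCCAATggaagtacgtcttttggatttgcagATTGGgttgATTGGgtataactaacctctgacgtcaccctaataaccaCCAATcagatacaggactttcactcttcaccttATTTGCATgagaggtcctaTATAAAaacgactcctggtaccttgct
HIST1H2BJ: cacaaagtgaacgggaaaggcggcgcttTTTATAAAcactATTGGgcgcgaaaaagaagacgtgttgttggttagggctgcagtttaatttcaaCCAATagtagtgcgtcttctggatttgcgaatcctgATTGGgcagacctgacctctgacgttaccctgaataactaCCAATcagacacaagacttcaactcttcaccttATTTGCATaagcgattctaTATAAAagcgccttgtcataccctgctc
HIST1H1C: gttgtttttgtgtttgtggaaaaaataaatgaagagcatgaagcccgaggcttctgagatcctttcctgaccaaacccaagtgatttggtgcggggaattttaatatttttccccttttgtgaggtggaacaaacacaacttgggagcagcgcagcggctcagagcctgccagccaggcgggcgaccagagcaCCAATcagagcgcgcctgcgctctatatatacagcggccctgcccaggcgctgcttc

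The HIST1H2BK and HIST1H2BJ promoters share an unbroken run of 33 bases, with the octamer 46 and 47 bases before the start, and they hold 6 and 4 copies of CCAAT. The HIST1H1C promoter holds 1 CCAAT and neither other motif. A match is a description of the letters, not of binding.

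10 head-to-head pairs of cluster genes had starts 219 to 357 bases apart. In the pair of HIST1H2BC and HIST1H2AC, 219 bases apart, both genes fell, with log2 fold changes of −1.21 and −1.24. In the pair of HIST1H2BJ and HIST1H2AG the values were −1.53 and −0.84, the second with the uncertainty given above. Within a pair, levels differed to a varying degree. HIST1H2BC was at 2.39 and 2.95 FPKM in TF1-BA cells, where HIST1H2AC was at 23.4 and 18.3 FPKM, while HIST1H2BL was at 0.909 and 1.33 FPKM and its partner HIST1H2AI at 1.32 and 1.41 FPKM. HIST1H2BK stood at 26.6 to 96.7 FPKM and its partner HIST1H2AH, 331 bases away, at no more than 0.482 FPKM. In the HIST3 pair, HIST3H2A was at 5.08 to 5.84 FPKM and did not pass the adjusted p, and HIST3H2BB, which had a mean of 0.416 FPKM and was not tested, was at 0.610 and 0.684 FPKM in TF1-BA cells and 0.161 and 0.211 FPKM in TF1-BAR cells. The ratio of HIST3H2BB fragments per library size was 3.46, with an exact 95% interval of 1.89 to 6.77 for counting error only. Without the filter on low values, HIST3H2BB had a log2 fold change of −0.74 and did not pass (adjusted p = 0.0695 by limma).

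In HIST1, the histone genes lie over 1873.4 kb (chr6:26020490-27893843) among other genes. The 24 tested histone genes of the interval had a median log2 fold change of −0.81, 12 fell by the adjusted p and 0 rose, beside 10.5% lower and 16.3% higher of all genes tested. The 19 other genes tested there had a median of −0.12, with 4 lower and 2 higher by the adjusted p beside the same shares of all genes. The butyrophilin genes BTN3A2 and BTN2A2 and the protease gene PRSS16 were lower, at log2 fold changes of −0.39, −0.46 and −0.40, and the zinc finger genes ZNF322 and ZNF391 were higher, at 0.51 and 0.31. The fourth lower gene, AL021807.1, fell by 1.74 on the log2 scale (4.32, 2.86, 1.24 and 0.330 FPKM, adjusted p = 0.0334 by limma). It was the only gene of the 19 past both thresholds and lies 2675 bases past the 3′ end of HIST1H2BJ, on the same strand. Outside the histone genes, the 807 tested genes of chromosome 6 had a median of 0.065.

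**Figure D4:**
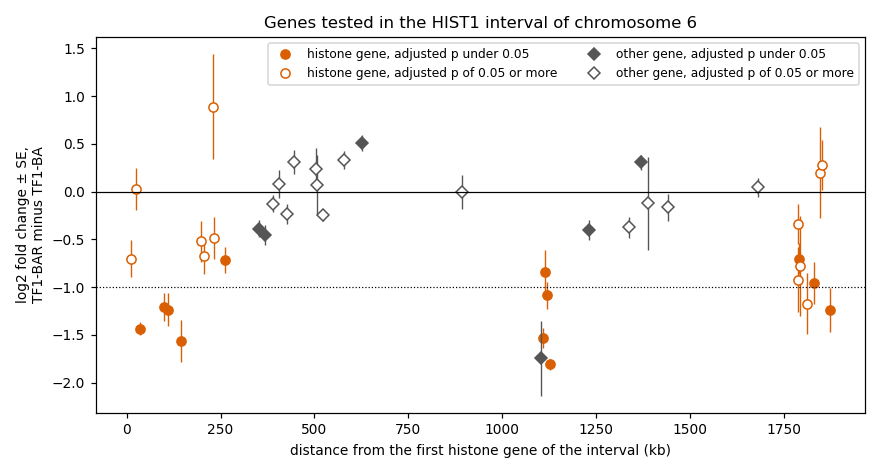
log2 fold change (TF1-BAR minus TF1-BA) with its SE for the tested genes of the HIST1 interval, by distance in kb of the gene's centre from the start of the first histone gene. Orange circles are histone genes, grey diamonds other genes, and filled marks have an adjusted p under 0.05. Most histone genes lie below 0, and the grey diamonds lie between −0.46 and 0.51 except AL021807.1 at −1.74.

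Outside the clusters, none of the 8 genes tested passed both thresholds, and their log2 fold changes lay between −0.43 and 0.51. The linker histone gene H1F0 (chr22:37805093-37807436), which is known for rising in cells that leave the cycle or differentiate, had the highest FPKM of the 74 genes, at 277 and 295 FPKM in TF1-BA cells and 384 and 434 FPKM in TF1-BAR cells. The cell lines did not overlap and it rose by 0.51 on the log2 scale (SE 0.0796, adjusted p = 0.0146). The adjusted p in limma was 0.122, 0.0993 and 0.0538 without TF1-BA replicate 1, TF1-BA replicate 2 and TF1-BAR replicate 2. HIST1H1C carries the stem-loop and H1F0 does not, and since selection by the poly(A) tail is not given, the levels of these genes within a library cannot be set against each other as amounts in the cell. H1FX, another linker histone gene, was at 5.52, 5.36, 6.06 and 7.27 FPKM, with a log2 fold change of 0.27, and did not pass the adjusted p. An antisense gene overlaps H1FX, and it was at no more than 0.352 FPKM.

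H2AFY, which encodes macroH2A1, a variant with a large extra domain, rose by 0.33 on the log2 scale (SE 0.0640, adjusted p = 0.0247), from 28.8 and 28.1 FPKM to 34.9 and 36.7 FPKM. Its adjusted p in limma was 0.152, 0.170 and 0.0694 without the same 3 libraries. H2AFZ, which encodes H2A.Z, was at 63.2 and 59.9 FPKM in TF1-BA cells and at 53.7 and 38.8 FPKM in TF1-BAR cells. The TF1-BAR libraries were both lower but far apart from each other, and H2AFZ did not pass (log2 fold change −0.43, adjusted p = 0.110 by limma, and −0.66 and 0.0285 without TF1-BAR replicate 1). Its paralog H2AFV was at 25.3 to 29.97 FPKM with overlap. H2AFX, whose protein is phosphorylated at DNA breaks and whose gene carries the stem-loop, was at 33.1, 34.0, 29.0 and 32.8 FPKM, with a log2 fold change of −0.12 and a 95% interval of −0.33 to 0.09. A fall as large as that of the cluster genes past both thresholds lies outside this interval.

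The genes for histone H3.3, which is placed into chromatin outside replication, did not pass the adjusted p. H3F3A was at 54.7, 52.3, 54.5 and 49.8 FPKM (95% interval of the log2 fold change −0.22 to 0.15), and H3F3B at 47.3, 46.6, 43.5 and 40.3 FPKM (−0.33 to 0.01). 20.6% of the words of H3F3A occur elsewhere, and the processed pseudogene H3F3AP4 was listed at 97.9 to 132 FPKM, above H3F3A itself, so that the level of H3F3A is uncertain. The summed level of the 14 genes was 540 and 549 FPKM in TF1-BA cells and 633 and 666 FPKM in TF1-BAR cells, most of it from H1F0.

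40 histone genes did not reach 0.5 FPKM, 34 in the clusters and 6 outside, and none of them had more than 26 fragments in a library. Just above the filter were HIST1H3E (0.592 FPKM), HIST1H2AL (0.682) and HIST1H2BN (0.696), and just below it HIST3H2BB (0.416), HIST2H2BE (0.401) and HIST1H2BG (0.389), by their means. Of the 34 untested cluster genes, TF1-BAR cells were lower without overlap in 16 and higher in 2, and 16 overlapped, beside 11.3% lower and 20.6% higher over the 15334 genes of the table that were above 0 but below the filter. Of those with copies of most or all of their sequence elsewhere, HIST2H2AA3, HIST2H2AA4, HIST2H4A, HIST2H4B, HIST2H3C, HIST2H3D and HIST1H4J were listed with at most 5 fragments, and HIST2H2BF with at most 12. Among the tested genes, HIST1H2AJ and HIST1H2AI, with 82.4% and 60.1% of their words elsewhere, had at most 11 and 12 fragments and did not pass the adjusted p. HIST1H4C had 0, 2, 1 and 0 fragments, and HIST1H4L had 0 in all libraries, which allows up to 0.533 to 0.622 FPKM at 3 fragments a library.

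Genes that make, process and deposit histones were given by a list of 53, of which 51 were tested. 7 were lower and 7 higher by the adjusted p, beside 10.5% and 16.3% of all genes tested, 37 did not pass the adjusted p, and the median log2 fold change was 0.031. None passed both thresholds. SLBP, the stem-loop binding protein, was at 28.8, 31.8, 31.5 and 31.2 FPKM, with overlap and a log2 fold change of 0.051. NPAT, the transcription factor of the cluster genes, was at 6.44 and 5.78 FPKM in TF1-BA cells and at 4.76 and 4.20 FPKM in TF1-BAR cells, and fell by 0.41 on the log2 scale (adjusted p = 0.0442 by limma). Its partner at the clusters, CASP8AP2, had a log2 fold change of 0.10 and did not pass the adjusted p.

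The remaining genes of the list moved in both directions. The chaperone gene ASF1A was at 26.8, 22.7, 17.9 and 14.04 FPKM and fell by 0.62 (adjusted p = 0.0362), while its paralog ASF1B, at 15.5, 14.4, 12.7 and 13.9 FPKM, did not pass. CENPA, the H3 variant of centromeres, and HJURP, its chaperone, fell by 0.50 (37.1, 36.9, 25.5 and 26.5 FPKM) and by 0.75 (39.0, 39.4, 21.8 and 24.3 FPKM), with adjusted p = 0.00911 and adjusted p = 0.00682. CHAF1A, the large subunit of the chromatin assembly factor CAF-1 that loads new H3 and H4, rose by 0.27 (9.51, 9.25, 11.3 and 11.6 FPKM, adjusted p = 0.0472), while CHAF1B overlapped. HIRA, DAXX and ATRX, which serve H3.3, had log2 fold changes of −0.032, 0.18 and 0.24 and did not pass the adjusted p, and the H2A.Z chaperone gene ANP32E had −0.56 and an adjusted p of 0.0886. RNA of SETD2, the H3K36 methyltransferase that the study is about, was at 9.45 and 9.11 FPKM in TF1-BA cells. In TF1-BAR cells it was at 12.1 and 12.4 FPKM, and it rose by 0.38 (adjusted p = 0.0213 by limma). The paper reports SETD2 mRNA as unchanged by qRT-PCR, and SETD2 protein and H3K36me3 as lower in TF1-BAR cells. Adjusted p-values are from limma over all genes tested. Without TF1-BA replicate 1, TF1-BA replicate 2 and TF1-BAR replicate 2 the genes of the list past the adjusted p were 0, 0 and 4, against 14.

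Since the cluster genes are tied to S phase, a list of 31 S-phase and proliferation genes was placed beside them. All were tested, 7 were lower and 5 higher, beside the same 10.5% and 16.3% of all genes, 19 did not pass the adjusted p, 0 passed both thresholds, and the median log2 fold change was 0.049. The lowest were the proliferation antigen gene MKI67 (33.7, 33.9, 17.4 and 19.1 FPKM, log2 fold change −0.87), the ribonucleotide reductase gene RRM2 (29.1, 26.1, 16.8 and 14.6 FPKM, −0.80) and the cyclin gene CCNE2 (2.02, 2.53, 1.40 and 1.09 FPKM, −0.67). Genes that rose included the transcription factor gene E2F1 (11.9, 12.1, 19.6 and 22.9 FPKM, 0.79) and the replicative helicase gene MCM7 (42.4, 40.4, 56.1 and 65.1 FPKM, 0.54). Without TF1-BA replicate 1, TF1-BA replicate 2 and TF1-BAR replicate 2 the S-phase genes past the adjusted p were 0, 0 and 3, against 12. The S-phase genes went both ways, and the share of cells in S phase was not measured here.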

How the data were processed

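RNA of TF1-BA and TF1-BAR cells was sequenced in 2 libraries per line. The authors extracted total RNA, mapped paired-end reads to GRCh38 with TopHat2 2.0.13, and quantified genes with Cufflinks and Cuffdiff 2.2.0, per the submitters' processing notes. The deposited values are FPKM for 32673 genes, per library, without log transformation. The pipeline was run with default parameters, and the annotation release is not given in the sources used here. How strand and reads with several matches entered the values was not tested. Antisense or overlapping genes and near-identical copies are therefore uncertain.

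Columns were matched to samples by title. 26 symbols that had become dates were restored from gene identifiers. Histone genes were taken by symbol and the protein-coding biotype. The members and all lists were chosen with earlier results of these data known. limma 3.58.1 in R 4.3.3 (eBayes with a trend) compared log2(FPKM + 0.5) for 15519 genes whose mean was 0.5 FPKM or more, with Benjamini-Hochberg adjustment. The thresholds were a log2 fold change of 1 or more in size and an adjusted p under 0.05, and genes past the adjusted p alone are given as such. Leaving out a library assumes that the lone library varies like the other group.

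Fragments behind the FPKM were recovered by searching for library sizes and lengths that make every library's value whole within 0.0001 fragments. All 30853 genes above 0 came out whole, 14114 of them at the annotated length, 856 at the span of the gene and 15883 at a fitted length. The fitted length was the shortest that worked, so fragments of such genes, HIST1H2BD and HIST1H2BJ among them, may be understated. With wrong sizes, 0 of the genes tried came out whole, but only genes at the annotated length were tried. This control does not bear on fitted lengths. The sizes were 18042299 and 15465497 in TF1-BA cells and 15761642 and 16074303 in TF1-BAR cells, and counts drawn from them cover counting error only. 75-base words were matched to the genome for copies. GENCODE 44 positions and RefSeq promoters of GRCh38 gave the sequences.

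Named with values were the members past both thresholds, the 8 most abundant of each class, the 5 largest changes past the adjusted p of each class, near-identical members and those at the filter. Of the supply list the genes fixed by name, and of the S-phase list the 3 largest in each direction, were named. A gene that this rule names is not reported here. HIST1H2AH, HIST1H2BH, HIST1H2BL, HIST1H3F, HIST1H4C and HIST1H4L, the genes between the HIST1 histone genes, H1FX and the marker genes singled out were chosen after their values were seen.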

Additional observations from a re-analysis of the deposited data

How the results depend on the processing

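With a pseudocount of 1 FPKM, 5 histone genes passed both thresholds, against 8, and without a filter on low values 4 did. Without the filter 5 were lower by the adjusted p, against 12, and 0 were higher, against 2, while eBayes without the trend left 1 higher. Of the supply list 5 passed without the filter and 6 without the trend, against 14, and of the S-phase list 4 and 5, against 12. The median of the cluster genes was −0.55 with a pseudocount of 1, −1.15 with 0.1, −1.09 with a mean of at least 1 FPKM, −0.34 without a filter and −1.25 with limma voom on the recovered fragments, so its sign held in these. The median outside the clusters was −0.0058 without a filter, −0.099 with upper-quartile scaling, −0.0050 as TPM and 0.077 with the trend on GC content, length and level removed, so it has no sure sign.

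Leaving out each library in turn gave 1 to 7 histone genes past both thresholds, 1 to 9 lower and 0 to 2 higher by the adjusted p, 0 to 9 supply genes and 0 to 11 S-phase genes. The medians ran from −0.87 to −0.68 in the clusters and from −0.086 to −0.0062 outside. Without TF1-BA replicate 1, 2 histone genes (HIST1H2BK and HIST1H1C) passed both thresholds, without TF1-BA replicate 2 only HIST1H2BK did, and without TF1-BAR replicate 2 there were 5, when 144, 42 and 427 of all genes did, against 737. HIST1H2BK passed the adjusted p in all 17 settings, HIST1H1C in 16 and HIST1H2BJ in 15. H1F0 did so in 13, H2AFY in 12 and HIST1H2BO in 11.

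Some genes that did not pass the adjusted p changed sign. H2AFV was at 0.032 and HIST2H2AC at −0.015 with the GC and length trend removed, H3F3A at 0.12 in that setting and 0.029 as TPM, and HIST1H3C at −0.089 with quantile normalization. With libraries left out, H3F3A ran from −0.10 to 0.026, HIST1H2AL from −0.45 to 0.85, HIST1H3C from −0.23 to 0.28, HIST1H3I from −0.036 to 0.59 and HIST2H2AC from −0.13 to 0.45. The causes were not tested.

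The deviations of same-numbered libraries from the means of their lines correlated at 0.065. With 2 libraries per line, this value cannot show whether the replicate numbers pair the libraries. With the replicate block, 8 histone genes passed both thresholds, 11 were lower and 2 higher, and 10 S-phase genes passed. The setting with a mean of at least 10 fragments was chosen after seeing the data and gave 8, 15 and 2. Few fragments limit the cluster genes: 2 of the 26 tested had under 10 fragments in every library.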

Other observations

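Histone pseudogenes and an antisense gene, which are not protein coding and are not among the 74 genes, were also listed, and those with a mean of at least 0.5 FPKM were tested with all other genes. The H3.3 pseudogene H3F3AP6 was at 12.002 and 11.8 FPKM in TF1-BA cells and at 9.88 and 7.42 FPKM in TF1-BAR cells, without overlap, and did not pass (log2 fold change −0.45, adjusted p = 0.0740 by limma). The H2B pseudogene HIST2H2BC, on chromosome 1, was at 0.764 and 0.892 FPKM and at 0.219 and 0.215 FPKM, with a log2 fold change of −0.89 and an adjusted p of 0.0340 in limma, the same direction as the tested H2B genes.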
